A study of Mus musculus with 4 samples.

Results

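The glutathione S-transferase family was examined in RNA-sequencing of bone marrow derived macrophages (BMMs) treated with dimethyl itaconate (DI) or vehicle during RANKL stimulation. The members were taken by gene name, as Gsta3, Gstm1, Gstt1, Gstt2, Gstp1, Gsto1, Gstk1, Mgst1, Mgst2 and Mgst3, and all 10 were found among the 34745 genes of the deposited table. BMMs came from wild-type male C57BL/6 mice aged 8 weeks, were kept without FBS for 12 h and were then cultured in complete medium with RANKL at 100 ng/mL for 24 h. There were 2 libraries with DI (RANKL+DI) and 2 with DMSO as the vehicle (RANKL+Veh), and every library received RANKL, so that no unstimulated cells serve as a baseline here. The dose of DI is written as 20 mM in the sample labels and as 20 μM in the paper's methods. The labels do not state whether the libraries of a group came from separate mice or cultures, and p-values therefore measure only the spread between these libraries.

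Glutathione S-transferases join the thiol of glutathione to reactive, electron-poor compounds, and the conjugates are then pumped out of the cell and trimmed to mercapturic acids. DI is itself such an electron-poor compound, an ester form of the macrophage metabolite itaconate that enters cells. The soluble enzymes are grouped in classes named by Greek letters, here alpha (Gsta3), mu (Gstm1), pi (Gstp1), omega (Gsto1) and theta (Gstt1 and Gstt2), while Gstk1 encodes the kappa enzyme of mitochondria and peroxisomes. Mgst1, Mgst2 and Mgst3 encode membrane proteins of a separate superfamily, MAPEG, which also holds the enzymes and helper protein of leukotriene and prostaglandin synthesis. Several transferase genes are textbook targets of NRF2, a transcription factor that binds the antioxidant response element together with small MAF proteins.

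The libraries held between 16085692 and 19403480 counts. Of the 12590 genes that passed the filter on low counts, 1868 (14.8%) passed an adjusted p of 0.05 in edgeR's quasi-likelihood fit, with 899 (7.14%) higher and 969 (7.70%) lower with DI. Scaling by library totals alone, in place of the TMM factors used here, gave 549 higher and 1930 lower genes, and moved the median log2 fold change over the 12590 genes from 0.00 to -0.10. The 9 table entries of 8 macrophage markers were all tested, and 6 rose, Fcgr1 fell (-0.60) and both Csf1r (0.08) and 1 entry of Itgam did not pass. Their summed level, most of it Lyz2, was 22540 to 23390 CPM (counts scaled to a common library total) with vehicle and 28810 to 29600 CPM with DI. Of 10 osteoclast markers, 8 were tested, and Calcr stood at 0 in every library. There were 5 that fell (Acp5, Ctsk, Nfatc1, Ocstamp and Mmp9) and 2 that rose (Atp6v0d2 and Itgb3), while Dcstamp (-0.186) did not pass. The sum of all 10 was 740.3 to 763.5 CPM with vehicle and 713.8 to 730.1 CPM with DI. Most of it was Atp6v0d2, at 426.7 and 417.4 CPM with vehicle and 508.6 and 509.0 CPM with DI. Markers of B cells, T and NK cells, mast cells and basophils, and erythroid cells each summed to less than 2 CPM, and Cd3e and Fcer1a were at 0. Neutrophil markers summed to 5.90 to 8.68 CPM with Ly6g at 0, and stromal markers to 41.3 to 51.3 CPM with Lepr at 0. No tested marker of these other cell types passed. The part of these markers in the changes of the transferase genes was not tested, and in such bulk samples fewer cells of a type and less RNA per cell cannot be told apart.

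The members lay on 5 chromosomes of GRCm38, and the exons of 0 of the 10 overlapped another gene in GENCODE M21. The stretches before the transcription start, read from RefSeq's GRCm38.p6 annotation, are shown for Gsta3, the member that changed most, and for Gstm1 and Mgst1, the members with the highest CPM with DI. They were searched on both strands for TGACNNNGC, the core of the antioxidant response element, and a match is in capitals. The 250 bases before the start of Gsta3 (chr1:21240335-21240584, plus strand) held 1 match, beginning 121 bases upstream. For Mgst1, 30 bases around its only match are printed (chr6:138140461-138140490, plus strand). The match began 56 bases upstream of a RefSeq start and reads TGACCGTGC on the opposite strand. By the deposited positions and GENCODE M21, however, Mgst1 starts at 138140316, so that there the match lies inside the gene. The 250 bases before the outermost start of Gstm1 (chr3:108017974-108018223, minus strand) held none.
Gsta3: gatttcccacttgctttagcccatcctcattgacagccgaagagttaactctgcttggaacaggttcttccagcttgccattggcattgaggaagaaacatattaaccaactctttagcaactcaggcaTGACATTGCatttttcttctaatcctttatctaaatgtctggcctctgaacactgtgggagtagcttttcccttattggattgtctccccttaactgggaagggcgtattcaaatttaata
Mgst1: gcggggcttgGCACGGTCAggaggcggggt
Gstm1: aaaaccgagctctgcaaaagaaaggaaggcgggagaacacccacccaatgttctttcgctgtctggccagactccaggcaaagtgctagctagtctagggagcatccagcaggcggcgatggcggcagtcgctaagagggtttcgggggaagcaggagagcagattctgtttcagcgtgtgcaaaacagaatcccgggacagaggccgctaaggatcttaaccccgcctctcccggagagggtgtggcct
In all, 9 of the 10 members had such a window, and 2 of the 9, Gsta3 and Mgst1, held a match in at least 1 window. The windows of Mgst2, Gstp1 and Gsto1, whose rises with DI are given below, held none. Among all 27025 genes with a window the share was 11.5%. The absence of a match says only that these letters are not in this window, since such elements can lie farther away.

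With DI, 6 of the 10 members rose at an adjusted p under 0.05, and none fell at that threshold (edgeR's quasi-likelihood test, Benjamini-Hochberg adjustment over 12590 genes). Among all tested genes, 7.14% rose and 7.70% fell. The rises ran from 3.58-fold for Gsta3 to 1.15-fold for Gsto1, with Mgst2, Mgst1, Gstm1 and Gstp1 in between. The other 4 members did not pass, 2 of them with a positive value (Gstk1 and Mgst3) and 2 with a negative value (the theta genes Gstt1 and Gstt2). For all 10 members the libraries of the 2 groups did not overlap in CPM scaled by TMM factors, which was also true of 58.6% of all tested genes. For Mgst3 the order of the groups depended on the scaling. Its FPKM was 32.49 and 32.13 with DI, below 34.33 and 33.1 with vehicle, while its CPM was slightly higher with DI. The median log2 fold change of the members was 0.46, against 0.00 for all tested genes. Every member passed the filter, with 16 counts as the lowest value in any library and 4796 as the highest.

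**Figure D1:**
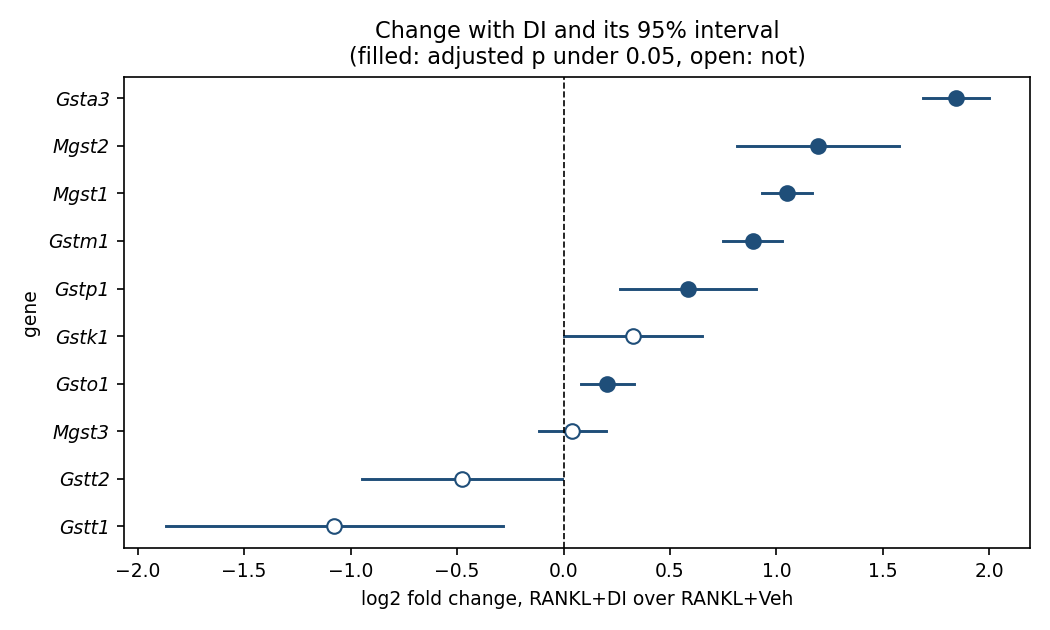
Log2 fold change of each glutathione S-transferase gene, RANKL+DI over RANKL+Veh, on the horizontal axis, with genes on the vertical axis. Circles are edgeR estimates from 2 libraries a group, filled where the adjusted p was under 0.05, and bars are 95% intervals. The 6 filled genes lie between 0.21 and 1.84, and Gstt1 and Gstt2 are the only members left of 0.

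The alpha gene Gsta3 (ENSMUSG00000025934, chromosome 1 from 21240589 to 21265661) changed most. Its enzyme is known in mice for conjugating the epoxide of aflatoxin. It had 541 and 492 counts in the vehicle libraries and 1852 and 1913 with DI. Scaled, these were 29.0 and 29.5 CPM against 107.8 and 102.0 CPM, so that each library with DI stood more than 3-fold above both vehicle libraries. The log2 fold change was 1.84 (SE, standard error, 0.063, 95% interval 1.69 to 2.0) at an adjusted p of 0.000258 (edgeR), and 26 of the 12590 tested genes had a higher one. It stayed between 1.74 and 1.88 over 12 alternative analyses and passed in each.

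The mu gene Gstm1 (ENSMUSG00000058135, chromosome 3 from 108012255 to 108017973) was the most abundant member in every library. It encodes one of the main cytosolic transferases of mouse tissues. Its counts were 2740 and 2237 with vehicle and 4555 and 4796 with DI, or 147.0 and 134.2 CPM against 265.2 and 255.6 CPM. Both libraries with DI were well above the vehicle libraries, although the vehicle libraries differed from each other more than those with DI. The log2 fold change was 0.89 (SE 0.056, adjusted p = 0.000799, edgeR). Part of the transcript (51.0%) has a copy in the pseudogene Gstm2-ps1 at 97.9% identity, so reads may be divided between them. Gstm2-ps1 itself had 249 and 218 counts with vehicle and 432 and 428 with DI. When both were summed, the log2 fold change was 0.89 as well.

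The pi gene Gstp1 (ENSMUSG00000060803, chromosome 19 from 4035407 to 4037921) encodes a transferase that is also known as a binding partner of the kinase JNK. It rose by a smaller factor, from 10.25 and 9.36 CPM to 13.45 and 15.94 CPM, on 156 to 299 counts a library. The libraries with DI differed from each other by more than those with vehicle did. The log2 fold change was 0.58 (SE 0.13, adjusted p = 0.0355, edgeR), with adjusted p-values of 0.0108 to 0.128 over the alternatives. It did not pass when scaled by library size only, in the fit with a replicate block (adjusted p = 0.0765, edgeR), or without DI replicate 2, vehicle replicate 1 or vehicle replicate 2, where its log2 fold change was between 0.46 and 0.65. Nearly all of its transcript (95.9%) is shared with Gstp2 at 94.2% identity. Gstp2 had 0 counts in all 4 libraries. How reads that fit both genes were counted is not given in the sources used here, and the level of Gstp1 is uncertain to that extent.

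The omega gene Gsto1 (ENSMUSG00000025068, chromosome 19 from 47854970 to 47864790) encodes an enzyme that removes glutathione from proteins and reduces dehydroascorbate. Its level was 88.8 and 85.2 CPM with vehicle and 100.4 CPM in both libraries with DI. This was the smallest change that passed, at a log2 fold change of 0.21 (SE 0.051, adjusted p = 0.0468, edgeR). The call was lost in 9 of 12 alternatives, with a highest adjusted p of 0.217 when scaled by library size only (log2 fold change 0.10) and 0.0802 with a replicate block. It was also lost without any 1 of the 4 libraries. The kappa gene Gstk1 (ENSMUSG00000029864, chromosome 6 from 42245935 to 42250447) had a larger value on fewer counts and did not pass. Its level was 5.90 and 6.48 CPM against 7.74 and 7.78 CPM, a log2 fold change of 0.33 with a 95% interval of 0.004 to 0.652 (adjusted p = 0.163, edgeR).

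Gstt1 and Gstt2 belong to the theta class, which is known for conjugating small halogenated compounds. The genes lie on chromosome 10, with Gstt1 (ENSMUSG00000001663) from 75783813 to 75798584 and Gstt2 (ENSMUSG00000033318) from 75831845 to 75834881, 33260 bases apart. Both had negative log2 fold changes that did not pass. Gstt1 had 47 and 50 counts with vehicle and 16 and 31 with DI, or 2.52 and 3.0 CPM against 0.93 and 1.65 CPM. The libraries with DI were below both vehicle libraries but far from each other. The log2 fold change was -1.08 (SE 0.32, 95% interval -1.87 to -0.28), with a p of 0.0161 before adjustment and 0.0812 after it (edgeR's quasi-likelihood test). It depended on which DI library was used, at -0.73 without DI replicate 1 and -1.55 without DI replicate 2. Without the filter on low counts Gstt1 passed, at an adjusted p of 0.0384 (edgeR), and over all alternatives the adjusted p ranged up to 0.257. Gstt2 went from 4.35 and 3.78 CPM to 2.74 and 3.09 CPM, a log2 fold change of -0.48 with a 95% interval of -0.95 to -0.01 (adjusted p = 0.16, edgeR), on 47 to 81 counts. It did not pass in any of 12 alternatives.

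**Figure D2:**
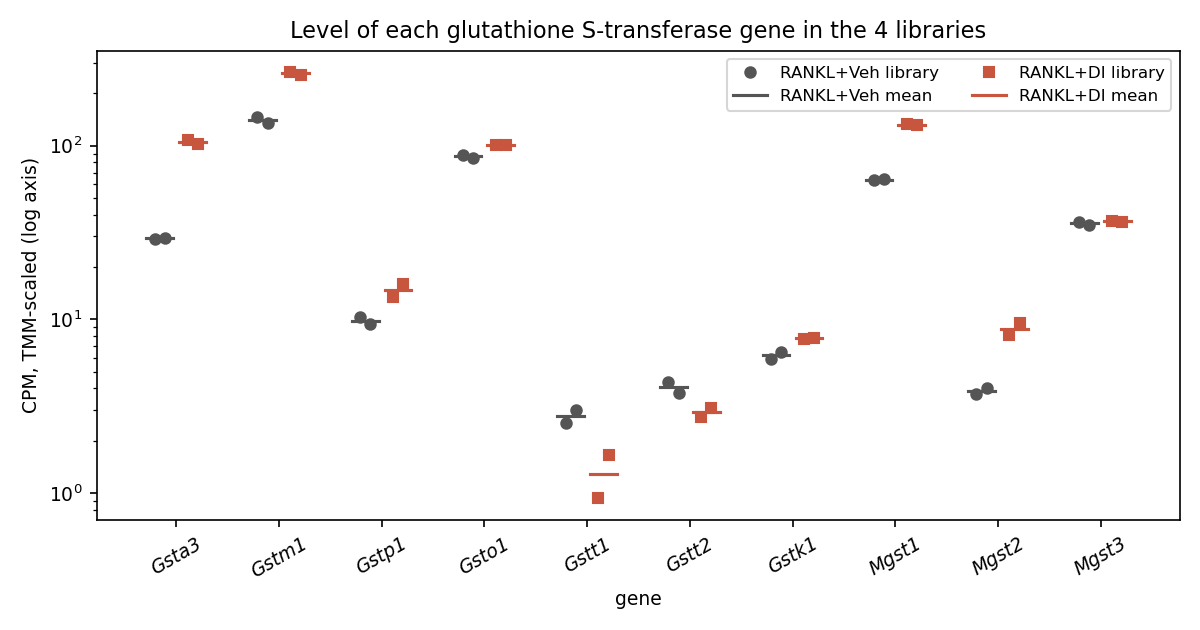
Level of each member in CPM (vertical axis, logarithmic) in each of the 4 libraries, with a short line at the mean of each group of 2. Gsta3, Gstm1, Mgst1 and Mgst2 stand clearly apart between groups, Mgst3 is level at 35.0 to 37.0 CPM, and Gstt1 shows the widest gap between the DI libraries.

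The 3 membrane-bound members did not behave alike. Mgst1 (ENSMUSG00000008540, chromosome 6 from 138140316 to 138156755) encodes a transferase and lipid peroxidase of the endoplasmic reticulum and outer mitochondrial membrane. It had 1175 and 1076 counts with vehicle and 2281 and 2462 with DI, or 63.0 and 64.5 CPM against 132.8 and 131.2 CPM. Libraries of the same group were nearly equal, and the log2 fold change was 1.05 (SE 0.049, adjusted p = 0.000371, edgeR). Mgst2 (ENSMUSG00000074604, chromosome 3 from 51660360 to 51682677), whose enzyme can also make leukotriene C4, went from 3.70 and 4.02 CPM to 8.15 and 9.49 CPM. Its log2 fold change of 1.19 (SE 0.16, adjusted p = 0.00634, edgeR) rested on 67 to 178 counts a library. Both genes passed in all 12 alternatives. Mgst3 (ENSMUSG00000026688, chromosome 1 from 167371966 to 167393841), which encodes a related glutathione peroxidase and transferase, had 36.3 and 35.0 CPM with vehicle and 37.0 and 36.5 CPM with DI. Its log2 fold change was 0.04, with a 95% interval of -0.12 to 0.20 (adjusted p = 0.716, edgeR), and turned to -0.06 when scaled by library size only. The count of Mgst1 divided by that of Mgst3 in the same library, which no scaling can change, was 1.74 and 1.84 with vehicle and 3.59 and 3.60 with DI. For Mgst2 over Mgst3 the ratio was 0.102 and 0.115 with vehicle and 0.220 and 0.260 with DI.

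**Figure D3:**
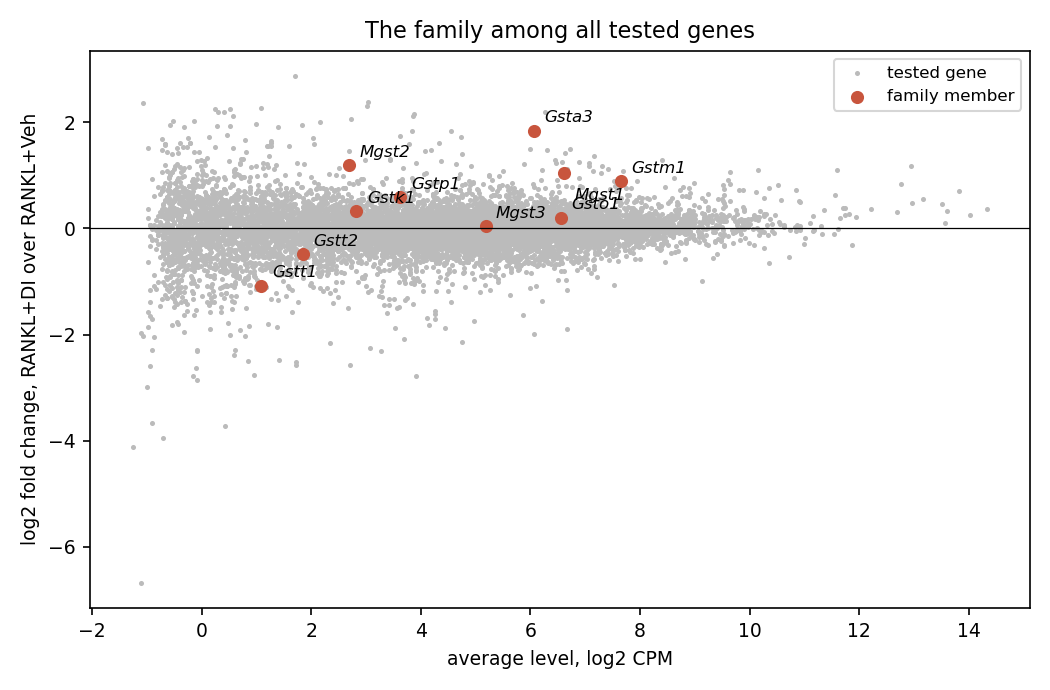
Average level in log2 CPM (horizontal axis) and log2 fold change with DI (vertical axis) of the 12590 tested genes in grey, with the 10 members in red. Gsta3 at 1.84, Mgst1 at 1.05 and Gstm1 at 0.89 lie above most genes of their level, and Gstt1 lies in the region of few counts where the spread is wide.

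Levels of different members were compared in FPKM, which divides by gene length, so that the order below Gstm1 holds only for the lengths used by the authors. In the vehicle libraries Gstm1 came first with 50.8 ± 3.29 FPKM (SD, n = 2), followed by Gsto1 with 36.2 ± 1.09 and Mgst3 with 33.7 ± 0.870 FPKM. Mgst1 and Gstp1 came next at 13.6 and 13.4 FPKM, with overlapping libraries, and Gsta3 stood at 6.39 ± 0.0738 FPKM. Gstt2 and Gstk1, at 3.07 and 2.82 FPKM, also overlapped, and Gstt1 (1.53) and Mgst2 (0.761) were lowest. With DI, Gstm1 reached 87.6 ± 2.0 FPKM and remained first, and Gsta3, at 21.3 ± 0.774 FPKM, stood above Gstp1, at 18.7 ± 2.30 FPKM. None of the neighbours in the order with DI overlapped, and Gstt1 was lowest at 0.668 ± 0.266 FPKM.

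The summed FPKM of the members was 166.4 and 158.3 with vehicle and 232.7 and 232.6 with DI, on the authors' scale of library totals. Within this sum, the share of Gsta3 was 3.81% and 4.07% with vehicle and 9.39% and 8.92% with DI. Gstm1 held 31.9% and 30.6% with vehicle and 38.3% and 37.1% with DI. The share of Mgst3 went from 20.8% to 13.9% and that of Gsto1 from 22.3% to 16.7%, as group means, while their group mean FPKM moved little. These shares depend on the gene length that was used. The lengths behind the deposited FPKM exceeded the longest coding transcript in GENCODE M21 by 8.72 times for Mgst2, 4.16 times for Mgst1 and 3.26 times for Gsta3, while both lengths were equal for Mgst3. With transcript lengths in their place, Gsta3 held 6.30% with vehicle and 13.1% with DI, Mgst1 held 17.1% and 20.6%, Mgst3 held 10.2% and 6.10%, and Gsto1 held 23.1% and 15.5%. Gstm1 still had the largest share in both groups, but the order below it changed. Mgst1 then stood above Mgst3 with vehicle and above Gsto1 with DI, Gsta3 stood above Mgst3 with DI, and Mgst2, at 2.01% with vehicle, stood above Gstt1 and Gstt2. Gsta3 then stood above Gstp1 already with vehicle, at 6.30% against 3.74%.

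**Figure D4:**
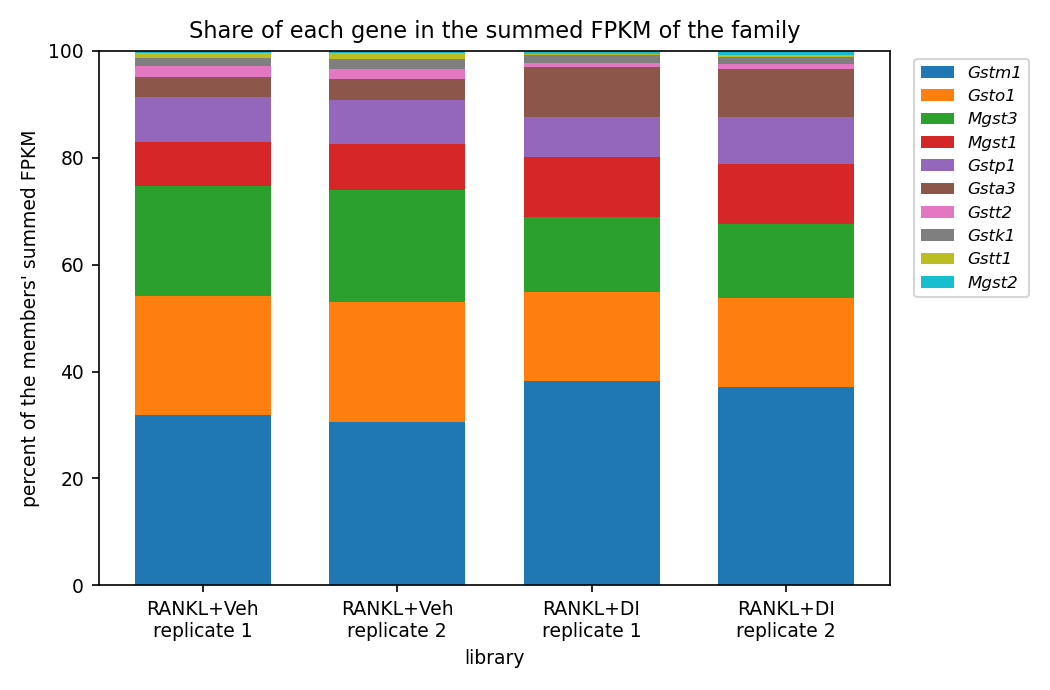
Share of each member in the summed FPKM of the 10 members (vertical axis, percent) in each library (horizontal axis), drawn as stacked bars from 0 to 100. The bars of Gstm1, Gsta3 and Mgst1 are taller with DI, those of Mgst3 and Gsto1 shorter, and the 2 libraries of a group look alike.

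The list of other glutathione transferase and MAPEG genes had 21 entries, of which 19 were found and 11 tested. Of the 11, 2 rose and 1 fell, against 14.8% of all tested genes called in either direction, and the median log2 fold change was 0.19. Alox5ap, which encodes the membrane helper protein of 5-lipoxygenase, went from 251.6 and 286.1 CPM to 505.4 and 529.2 CPM, with a log2 fold change of 0.94 (SE 0.067, adjusted p = 0.00108, edgeR). Over 13.3% of its exons it overlaps Gm19719 on the opposite strand, and no source used here states that reads were counted by strand. Gstm2, a neighbour of Gstm1 in the mu cluster, rose from 10.1 ± 1.01 to 16.01 ± 0.331 CPM (SD, n = 2 each, log2 fold change 0.67, adjusted p = 0.016, edgeR), and without vehicle replicate 2 its adjusted p was 0.0609. Gstcd, which has only the C-terminal domain of a transferase, fell from 18.9 ± 0.112 to 13.1 ± 1.45 CPM (SD, n = 2 each, log2 fold change -0.53, adjusted p = 0.0303, edgeR). Its exons overlap Ints12 on the opposite strand over 1.85%. The fall of Gstcd did not pass without DI replicate 2 or either vehicle library, nor with a replicate block (adjusted p = 0.0561, edgeR).

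The remaining 8 tested genes did not pass. Among the mu genes, Gstm3 had a log2 fold change of 0.81 on 9 to 18 counts, Gstm4 of 0.35 and Gstm5 of 0.19, and Gstm3 shares 45.5% of its transcript with Gstm1 at 91.3% identity. The third theta gene tested, Gstt3, was at -0.27 with a 95% interval of -0.61 to 0.08, the sign of Gstt1 and Gstt2. Its exons overlap Gm20441 on the same strand over 13.6%, and it shares 27.9% of its transcript with that gene. Gstz1, the zeta enzyme of tyrosine breakdown, was at -0.06, and at 0.08 without DI replicate 1. The exons of Gstm5, Gstz1 and Ltc4s partly overlap genes on the opposite strand. Hpgds, the sigma-class prostaglandin D synthase, was at 0.14 (adjusted p = 0.08, edgeR) at a high level of 177.6 ± 2.18 CPM with vehicle (SD, n = 2). The MAPEG enzymes Ltc4s (leukotriene C4 synthase) and Ptges (prostaglandin E synthase) were at 0.50 and 0.13. Gsta1 and Gstp2 had no count in any library. Gsta4, named after its values were seen, was removed by the filter on low counts, with 1 and 2 in the vehicle libraries and 9 and 11 with DI. The ratio of its rates was 6.55, with an exact 95% interval of 1.94 to 34.4 that covers counting error only. Fitted without that filter, it did not pass (adjusted p = 0.0789, edgeR).

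The genes around the conjugation step were described by 3 lists, whose counts stand against 7.14% of all tested genes that rose and 7.70% that fell. Of 22 genes of glutathione synthesis and recycling, 20 were tested, 8 rose and none fell, with a median log2 fold change of 0.23. The 3 highest were Gclm (1.29, SE 0.15) and Gclc (1.08, SE 0.041), which encode the subunits of glutamate-cysteine ligase, and Slc7a11 (1.25, SE 0.046), which encodes the cystine importer. Of 22 genes of conjugate export and the mercapturate route, 19 were found and 14 tested, 5 rose and 1 fell, with a median of 0.10. The exporter genes Abcc1 and Abcc4 rose by 0.74 (SE 0.035) and 0.67 (SE 0.085) on the log2 scale. Ggt5, a glutamyl transferase that trims conjugates outside the cell, had a value of 1.97 (SE 0.49, adjusted p = 0.0491, edgeR) on few counts and did not pass in 5 alternatives, among them without DI replicate 1, DI replicate 2 or vehicle replicate 2. Leaving out vehicle replicate 2 gave 1.33, and leaving out vehicle replicate 1 gave 3.28. Acy1, which encodes aminoacylase, fell by 1.19 on the log2 scale (SE 0.16, adjusted p = 0.00678, edgeR). All 24 listed genes of the NRF2 pathway outside the other lists were tested, and 19 rose and none fell, with a median of 0.73. Among those that rose, G6pdx and Pgd are also placed in glutathione metabolism by the authors' KEGG annotation. The 3 highest of the NRF2 list were Aox1 (1.56), Nqo1 (1.5) and Cbr3 (1.22), all oxidases or reductases of foreign compounds. Aox1 did not pass without DI replicate 2 or either vehicle library. Nfe2l2, which encodes NRF2 itself, was at 0.07 and did not pass. The small MAF gene Mafg rose (0.437, SE 0.044, adjusted p = 0.00297, edgeR), while Keap1, Bach1, Maff and Mafk of the same list did not pass.

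**Figure D5:**
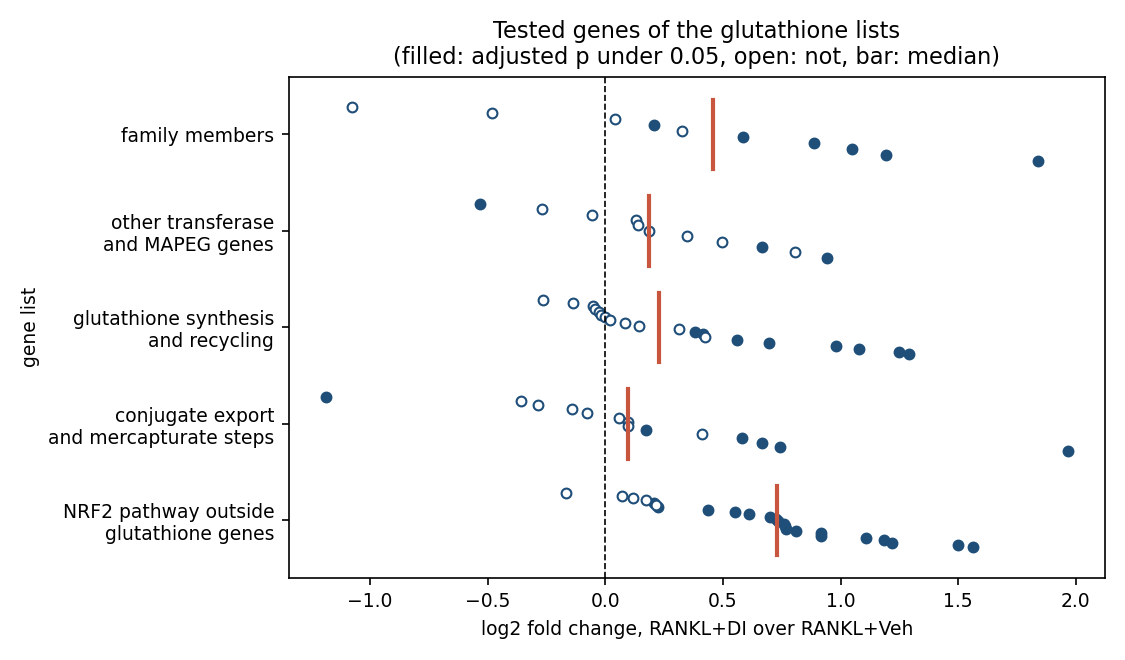
Log2 fold change with DI (horizontal axis) of the tested genes of 5 lists (vertical axis), filled where the adjusted p was under 0.05, with a red bar at the median. The medians are 0.46 for the members, 0.19 for other transferase and MAPEG genes, 0.23 for glutathione synthesis and recycling, 0.10 for export and mercapturate steps and 0.73 for the NRF2 pathway.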

How the data were processed

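RNA was measured in BMMs after 24 h of RANKL and either DI or vehicle, as 2 libraries a group, grouped by their labels. For each gene the authors deposited the unnormalized counts and FPKM values, which follow from those counts and 1 length a gene. The submitters' processing notes name GRCm38 and mm10, and the aligner, counting program and annotation release are not given in the sources used here. A second deposited table repeats both and adds KEGG terms. No row lacked a gene name. Of 34267 identifiers shared with GENCODE M21, all agreed in chromosome and 80.8% in start and end, 8 of the 10 members among them.

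Differences were fitted in edgeR 4.0.16 under R 4.3.3 (TMM factors, default filter on low counts, quasi-likelihood model of the condition alone), with Benjamini-Hochberg adjustment over 12590 genes and 2 residual degrees of freedom. Intervals of fold changes are 95% intervals from the moderated standard error. Libraries of a group differed by more than sampling noise (chi-square over its degrees of freedom, 8.06 and 8.23). A total of 3 counts corresponds to 0.160 to 0.180 CPM. Near copies were sought with BLAST+ 2.17.0 (a minimum of 90% identity and of 20% of the transcript), and 2 members had one. Of the steps, only the edgeR, limma-voom and DESeq2 fits were tried on simulated counts, with the same spread set for every gene. Alternatives were DESeq2's size factors, library size only, no filter, at least 10 counts in every library, DESeq2 1.42.0, limma-voom (limma 3.58.1), a replicate block, and each library left out. A crossed block, summed near copies (for Gstm1 and Gstp1) and transcript lengths were added after the data were seen.

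The members and lists were chosen with earlier results of these data known. Genes named are the 10 members, every tested gene of the other transferase list, and at most 3 called genes in each direction of the other lists. Markers of cell types, near copies and overlapping genes are named apart from it. Nfe2l2, Mafg, Keap1, Bach1, Maff, Mafk, G6pdx, Pgd, Idh1, Idh2, Gsta1, Gstp2 and Gsta4 were named outside this rule.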

Additional observations from a re-analysis of the deposited data

How the results depend on the processing

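Gsta3, Gstm1, Mgst1 and Mgst2 passed in every alternative run, while Gsto1 and Gstp1 lost their calls in 9 of 12 and 5 of 13. The number of members called was 4 when scaled by library size only, 5 by DESeq2 and 6 by limma-voom, and 4 to 5 with 1 library left out. A pair of results turned their sign, Mgst3 to -0.061 when scaled by library size only and Gstz1, which ranged from -0.21 to 0.082 with 1 library left out. With 1 library left out, 1088 to 1394 genes were called in all and 1 to 3 of the other transferase genes, the lowest without vehicle replicate 2. With the longest coding transcript as length, Gstm1 held 36.8% of the summed FPKM with DI and 34.1% with vehicle, and Gsta3 held 13.1% and 6.30%. The counts divided by the length behind the FPKM gave the same shares by construction. The replicate numbers are not stated to mark a shared culture, and deviations of same-numbered libraries correlated at -0.13 over 9273 genes. The replicate block called 1389 genes and 4 members, and the crossed pairing 1466 genes and 5 members. With a library left out, the single library of its group is assumed to vary like the other group. Counts of 16 to 81 for Gstt1 and Gstt2 limit what can be said of the theta genes.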

Other observations

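The KEGG annotation added by the authors places 43 genes other than the members in glutathione metabolism, of which 28 were tested, 11 rose and 6 fell (edgeR, adjusted p under 0.05), against 7.14% and 7.70% of all tested genes, with a median log2 fold change of 0.25. All of the genes that rose, except Idh1, were already counted in the lists above, while those that fell were not. The genes that rose most were Ggt5, Gclm and Gclc. The lowest values among those that fell were those of Srm (-0.48, SE 0.063), which encodes spermidine synthase, Rrm1 (-0.44, SE 0.040) and Rrm2 (-0.37, SE 0.045), which encode subunits of ribonucleotide reductase. Srm went from 41.8 ± 0.0237 to 29.9 ± 0.296 CPM, and Rrm1 from 260.4 ± 6.48 to 192.4 ± 0.212 CPM (SD, n = 2 each). Srm, Rrm1 and Rrm2 serve to make polyamines and deoxynucleotides and share the pathway entry with the transferases. Idh2, which encodes an isocitrate dehydrogenase, also fell (-0.342, SE 0.06, adjusted p = 0.0162, edgeR), while Idh1 rose (0.495, SE 0.055). A count over the whole entry therefore joins genes of opposite direction.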
